A study of Homo sapiens with 2 samples.

Results

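The 37 genes of the human mitochondrial genome were examined in RNA-seq data of the HCC cell line PLC-8024, as the genes whose listed symbol starts with MT-, out of 58174 genes. They comprise 13 protein-coding genes, 2 rRNA genes and 22 tRNA genes, and all 37 were found in both libraries. PLC-8024 cells labelled as control (PLC-8024-CTR, with a control vector; control cells) were compared with PLC-8024 cells that overexpressed GDF1 (PLC-8024-GDF1; GDF1 cells), a secreted ligand of the TGF-β superfamily. For the overexpression, the cells received the human GDF1 gene by lentivirus and stably transduced cells were selected with puromycin. Each condition had 1 library, made from RNA captured with poly-T beads. Without replicates, no error or p-value can be given, and all differences describe these 2 libraries.

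Mitochondrial DNA is a small circular genome that is transcribed from both strands into long precursor RNAs. The tRNA genes lie between most of the other genes, and their excision releases the mRNAs and rRNAs. The coding genes encode core subunits of respiratory chain complexes I, III and IV and of ATP synthase (complex V), and every other subunit is made from nuclear genes. The 2 rRNAs and the 22 tRNAs serve only the ribosomes inside the mitochondrion. The liver is rich in mitochondria, and changes in oxidative metabolism are a known feature of liver cancer. In bulk RNA, fewer mitochondrial genomes and fewer transcripts of each genome cannot be told apart.

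The values are TPM, a read coverage scaled by gene length and by the total of the library, so levels can be compared between genes. Changes of single genes are log2((TPM + 1)/(TPM + 1)) with PLC-8024-GDF1 as numerator, and sums of genes are compared by the log2 of their plain ratio. TPM keeps no sequencing depth, so no counting error is given. Tested were the 9632 genes that reached 5 TPM in one library or both. Their median log2 change was -0.20, and 63.4% of them were lower in PLC-8024-GDF1 by any amount, 36.6% were higher, 10.8% were lower past 2-fold and 4.89% were higher past 2-fold. The introduced gene was listed at 2.1 TPM in control cells and 4.64 TPM in GDF1 cells, while CERS1, whose exons hold the GDF1 coding sequence, was listed at 13.3 and 9612 TPM. All 13 hepatocyte and HCC markers reached 5 TPM, among them KRT8, KRT18, SERPINA1 and APOB, and 7 of the 13 were lower past 2-fold in PLC-8024-GDF1. Of these 7, TTR (7.17 and 0.34 TPM) reached 5 TPM only in control cells, so its direction was fixed by the filter. Of 8 markers of immune, endothelial and stromal cells, 2 (CD68 and PECAM1) reached 5 TPM and PTPRC, VWF and DCN were listed at the value of 0.0001 that stands for 0 in both libraries.

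The 37 genes together held 16.3% of the total TPM in PLC-8024-CTR and 14.9% in PLC-8024-GDF1, a log2 ratio of -0.13. The classes differed in direction. The 13 coding genes summed to 132018 TPM in control cells and 104733 TPM in GDF1 cells, a log2 ratio of -0.33. The 2 rRNA genes changed little, from 10261 to 9629 TPM (log2 ratio -0.09). The 22 tRNA genes summed to 21009 TPM in control cells and 34711 TPM in GDF1 cells, a log2 ratio of 0.72. The log2 ratio of the tRNA genes was thus 1.06 above that of the coding genes, and that of the rRNA genes was 0.24 above it. These 2 differences lie within the mitochondrial genes and do not move with the scaling of the libraries. The sums themselves do: when TPM was rescaled so that the median ratio of all genes was 1, the 37 genes together (log2 ratio 0.08) and the rRNA genes (0.12) were higher in PLC-8024-GDF1, and the coding genes stayed lower.

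**Figure D1:**
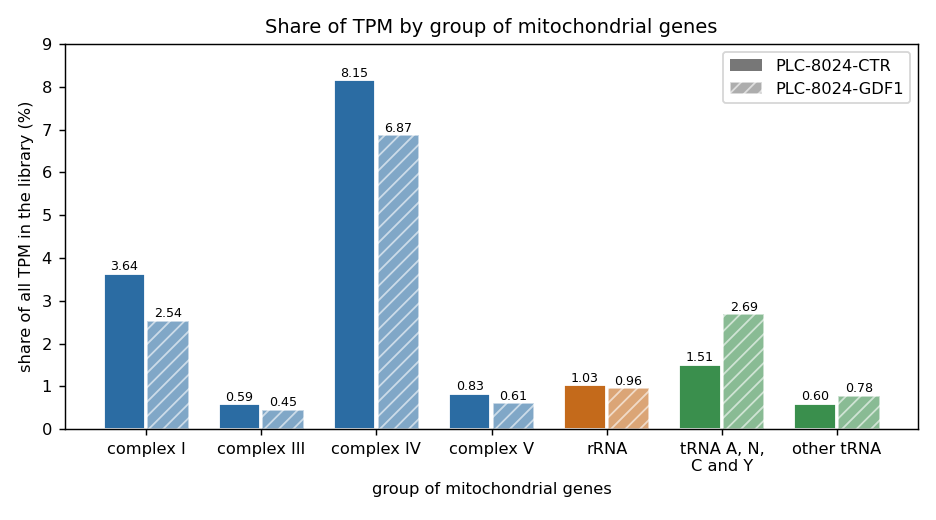
Share of all TPM in a library (%) for each group of mitochondrial genes, with plain bars for PLC-8024-CTR and hatched bars for PLC-8024-GDF1 (1 library each). The coding genes of each complex had the lower share in PLC-8024-GDF1, whereas MT-TA, MT-TN, MT-TC and MT-TY together went from 1.51% to 2.69%.

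Because a tRNA gene is short, its share of TPM is far above its share of the reads. Weighted by gene length, which approximates the aligned bases, the tRNA genes made up 1.06% of the mitochondrial signal in PLC-8024-CTR and 2.20% in PLC-8024-GDF1, against 12.9% and 23.3% of mitochondrial TPM. The length-weighted share of the coding genes was 88.3% and 85.2%, and that of the rRNA genes was 10.7% and 12.6%. In length-weighted terms the coding genes thus held most of the mitochondrial signal in both libraries.

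Each of the 13 coding genes was lower in PLC-8024-GDF1 as deposited, as were 63.4% of all genes tested. Of the 13, 4 (MT-CO2, MT-CO3, MT-ATP6 and MT-ND3) turned to slightly higher with TPM rescaled to the median of all genes. The median log2 change was -0.53, compared with -0.20 over all genes tested. The highest levels were those of complex IV, the cytochrome c oxidase that passes electrons to oxygen. MT-CO2, the subunit that takes up electrons from cytochrome c, had the highest TPM of all 58174 genes in both libraries, with 39089 TPM in control cells and 35602 TPM in GDF1 cells (log2 change -0.13). MT-CO3, a core subunit without a redox centre, was listed at 23296 and 20466 TPM (log2 change -0.19). MT-CO1, which holds the catalytic centre, was listed at 19121 and 12640 TPM, a log2 change of -0.60. The 3 genes of 1 complex thus did not change alike, since MT-CO1 was 0.661 times its control level and MT-CO2 was 0.911 times.

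Complex I, the NADH dehydrogenase, takes 7 of its subunits from mitochondrial DNA. MT-ND4, the most abundant of them, was listed at 10194 TPM in control cells and 7067 TPM in GDF1 cells (log2 change -0.53), and MT-ND2 at 5614 and 3901 TPM (log2 change -0.53). MT-ND1 was listed at 5871 and 3466 TPM, a log2 change of -0.76. MT-ND5, the longest of the 37 genes with 1812 bases, was listed at 1749 and 964 TPM, a log2 change of -0.86. As deposited, these 4 genes were all lower by more than the median of all genes. MT-ND1 was not (-0.13) when the TPM of its nuclear copies were added, and it was (-0.37) when they were weighted by length. MT-ND3 was the exception among the 7 with 5835 and 5587 TPM, a log2 change of -0.06. MT-ND6, the only coding gene that is transcribed as part of the light-strand transcript, was listed at 5381 and 3665 TPM, a log2 change of -0.55. Its neighbour MT-ND5 lies on the opposite strand, and since the handling of strand is not stated, reads from opposite strands cannot be told apart.

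MT-CYB, which encodes cytochrome b of complex III, was listed at 5864 TPM in control cells and 4534 TPM in GDF1 cells (log2 change -0.37). For ATP synthase, MT-ATP6, part of the proton channel, was listed at 6673 and 5813 TPM (log2 change -0.20). The order of the coding genes by level was nearly kept, with the first 5 (MT-CO2, MT-CO3, MT-CO1, MT-ND4 and MT-ATP6) and the last 3 (MT-ND5, MT-ND4L and MT-ATP8) in the same rank in both libraries. Between them and without nuclear copies, MT-ND1 went from rank 6 in PLC-8024-CTR to rank 10 in PLC-8024-GDF1, and MT-ND3 from rank 8 to rank 6.

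**Figure D2:**
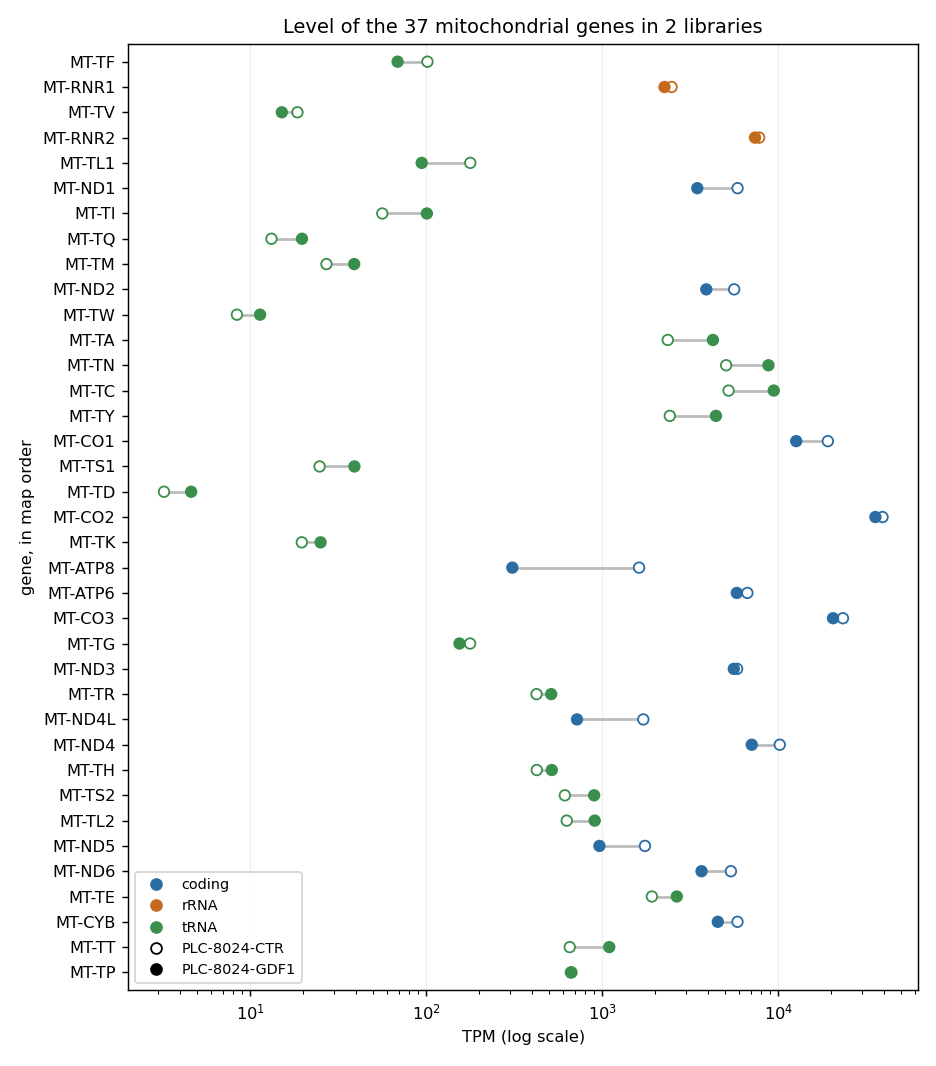
TPM (log scale) of the 37 mitochondrial genes in map order, with open circles for PLC-8024-CTR, filled circles for PLC-8024-GDF1 and colours for coding, rRNA and tRNA genes. Levels span from 3.24 TPM (MT-TD) to 39089 TPM (MT-CO2), and the longest gap between libraries is that of MT-ATP8.

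As deposited, the 4 coding genes with the smallest changes stood close together on the map. MT-CO2 (chrM:7586-8269), MT-ATP6 (chrM:8527-9207), MT-CO3 (chrM:9207-9990) and MT-ND3 (chrM:10059-10404) follow one another with only MT-TK, MT-ATP8 and MT-TG between them. Of these, MT-ATP8 had the largest change of all coding genes (-2.39), so the run is broken by it. Their log2 changes ranged from -0.20 to -0.06, and together they were listed at 74893 TPM in control cells and 67469 TPM in GDF1 cells (log2 ratio -0.15). The other 9 coding genes ranged from -2.39 to -0.37 and summed to 57125 and 37264 TPM (log2 ratio -0.62). This grouping was made after the values were seen and was not tested, and it did not hold under every alternative. With unweighted nuclear copies added, MT-ND1 (-0.13) took the place of MT-ATP6 (-0.34), and with the TPM of overlapping pairs added up, MT-CYB (-0.37) took the place of MT-ATP6 (-0.44). The 4 genes have lengths of 346 to 784 bases, and the other 9 include both shorter (MT-ATP8) and longer genes (MT-ND5).

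Of the 37 genes, 2 passed 2-fold, both of them lower in PLC-8024-GDF1 (5.41% of the genes, against 10.8% of all genes tested, or 15.7% in either direction). MT-ATP8, a small membrane subunit of ATP synthase, was listed at 1619 TPM in control cells and 309 TPM in GDF1 cells, a log2 change of -2.39. MT-ND4L, a small membrane subunit of complex I, was listed at 1711 and 719 TPM, a log2 change of -1.25. Both are the shortest coding genes (207 and 297 bases), and each overlaps the next gene on the same strand, with which it is carried on 1 mRNA. Their sequences are shown as those of the only genes past 2-fold and to make the overlaps visible. They are given from the first to the last base of the gene as DNA letters from GENCODE, with the bases shared with MT-ATP6 or MT-ND4 in capitals.
MT-ATP8 (chrM:8366-8572): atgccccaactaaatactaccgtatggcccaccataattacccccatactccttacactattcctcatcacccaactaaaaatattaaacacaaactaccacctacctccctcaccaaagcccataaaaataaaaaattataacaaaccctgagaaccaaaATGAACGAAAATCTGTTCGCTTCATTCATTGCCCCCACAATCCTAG
MT-ND4L (chrM:10470-10766): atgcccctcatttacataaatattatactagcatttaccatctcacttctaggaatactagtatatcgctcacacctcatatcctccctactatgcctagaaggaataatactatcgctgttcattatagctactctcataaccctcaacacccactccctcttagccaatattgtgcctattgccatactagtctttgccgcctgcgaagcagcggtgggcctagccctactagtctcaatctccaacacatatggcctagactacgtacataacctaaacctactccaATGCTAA

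The shared part is 46 bases in MT-ATP8, 22.2% of its length, and 7 bases in MT-ND4L, 2.36% of its length. Although each pair is carried on 1 mRNA, the smaller gene did not keep its ratio to the larger one. MT-ATP8 had 0.243 times the TPM of MT-ATP6 in PLC-8024-CTR and 0.0531 times in PLC-8024-GDF1, and MT-ND4L had 0.168 and 0.102 times the TPM of MT-ND4. Added up, MT-ATP8 and MT-ATP6 were listed at 8292 and 6122 TPM, a log2 ratio of -0.44, or of -0.28 with TPM weighted by gene length. MT-ND4L and MT-ND4 added up to 11905 and 7786 TPM, a log2 ratio of -0.61, or of -0.55 weighted by gene length. With each pair taken as 1 gene in either way, 0 mitochondrial genes passed 2-fold. How reads were divided within the pairs was not tested.

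The rRNAs of the small and large mitochondrial ribosomal subunits were the class with the smallest change. MT-RNR1 (chrM:648-1601), the small subunit rRNA, was listed at 2477 TPM in control cells and 2258 TPM in GDF1 cells, a log2 change of -0.13. MT-RNR2 (chrM:1671-3229), the large subunit rRNA, was listed at 7784 and 7372 TPM, a log2 change of -0.08. Both turned to higher (0.07 and 0.13) with TPM rescaled to the median of all genes. MT-RNR2 had 3.14 times the TPM of MT-RNR1 in PLC-8024-CTR and 3.27 times in PLC-8024-GDF1. In cells rRNA is the most abundant mitochondrial RNA, whereas in these libraries of poly-T captured RNA 10 coding genes had more TPM than MT-RNR1 in each library, and 4 in PLC-8024-CTR and 3 in PLC-8024-GDF1 had more than MT-RNR2.

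Of the 22 tRNA genes, 17 were higher in PLC-8024-GDF1 and 5 lower, against 36.6% of all genes tested that were higher. With rescaled TPM 19 were higher, and with CERS1 and GDF1 left out of the library total 18 were higher. All but MT-TD for aspartate (3.24 and 4.63 TPM) reached 5 TPM, and the median log2 change of these 21 was 0.51. None of the 22 passed 2-fold as deposited. With rescaled TPM 5 did, all narrowly (log2 changes 1.00 to 1.08), beside 723 of 9816 tested genes that were then higher past 2-fold.

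Most of the tRNA signal came from 4 neighbouring genes. MT-TC, the tRNA for cysteine, was listed at 5221 TPM in control cells and 9425 TPM in GDF1 cells, a log2 change of 0.85. MT-TN, the tRNA for asparagine, was listed at 5056 and 8790 TPM, a log2 change of 0.80. MT-TY for tyrosine was listed at 2419 and 4424 TPM (log2 change 0.87) and MT-TA for alanine at 2356 and 4253 TPM (log2 change 0.85). These 4 genes thus changed by almost the same factor, although their levels differed. Together they were listed at 15052 and 26892 TPM (log2 ratio 0.84), while the other 18 tRNA genes summed to 5957 and 7820 TPM (log2 ratio 0.39). This grouping was made after the values were seen and was not tested. The 4 genes lie side by side between MT-ND2 and MT-CO1 and belong to the light-strand transcript, and MT-TC and MT-TY share 1 base. Since the handling of strand is not stated, reads over these genes cannot be assigned to a strand. On the other strand, MT-TW, the tRNA for tryptophan, ends 7 bases before MT-TA and was listed at only 8.41 and 11.4 TPM (log2 change 0.40). Their sequences are shown as the tRNAs that carry the change of the class, with MT-TW as the low neighbour. They run from the first to the last base of the gene in the direction of its RNA, with the anticodon in capitals.
MT-TA (chrM:5587-5655, minus strand): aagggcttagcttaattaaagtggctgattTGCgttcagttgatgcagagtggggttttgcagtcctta
MT-TN (chrM:5657-5729, minus strand): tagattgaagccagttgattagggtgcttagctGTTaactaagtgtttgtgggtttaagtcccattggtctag
MT-TC (chrM:5761-5826, minus strand): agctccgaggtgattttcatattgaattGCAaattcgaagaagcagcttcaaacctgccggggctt
MT-TY (chrM:5826-5891, minus strand): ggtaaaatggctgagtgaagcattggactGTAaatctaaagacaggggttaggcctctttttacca
MT-TW (chrM:5512-5579, plus strand): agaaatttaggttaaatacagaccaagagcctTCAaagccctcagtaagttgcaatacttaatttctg

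With 66 to 73 bases, these tRNAs are shorter than the fragments of a sequencing library, so reads over them can also come from precursors that reach into the neighbouring genes. MT-TE (glutamate), the other light-strand tRNA at a high level, was listed at 1915 and 2652 TPM, a log2 change of 0.47. The remaining light-strand tRNAs had lower levels, with MT-TP (proline) at 669 and 663 TPM (log2 change -0.01), MT-TS1 (serine) at 24.8 and 39.1 TPM (log2 change 0.64) and MT-TQ (glutamine) at 13.2 and 19.7 TPM (log2 change 0.54). The 8 light-strand tRNA genes together had a log2 ratio of 0.78, and the 14 heavy-strand tRNA genes, from 3335 to 4446 TPM, one of 0.41. These groups follow the strand of the gene, as the strand of the reads is not known.

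The heavy-strand tRNAs differed widely in level. MT-TH, MT-TS2 and MT-TL2, for histidine, serine and leucine, lie in a row between MT-ND4 and MT-ND5. They were listed at 425, 613 and 629 TPM in PLC-8024-CTR and at 517, 900 and 906 TPM in PLC-8024-GDF1 (log2 changes 0.28, 0.55 and 0.53). MT-TT for threonine, after MT-CYB, was listed at 654 and 1096 TPM (log2 change 0.74), and MT-TR for arginine, before MT-ND4L, at 424 and 513 TPM (log2 change 0.28). MT-TI for isoleucine went from 56.3 to 100.9 TPM (log2 change 0.83). MT-TM (27.1 and 39.0 TPM, log2 change 0.51) and MT-TK (19.7 and 25.1 TPM, log2 change 0.34), for methionine and lysine, were low in both libraries.

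Of the 5 tRNA genes that were lower in PLC-8024-GDF1, 3 lie around the rRNA genes, a grouping made after the values were seen. MT-TF for phenylalanine, before MT-RNR1, was listed at 101.7 and 68.8 TPM (log2 change -0.56), and MT-TV for valine, between the rRNA genes, at 18.6 and 15.1 TPM (log2 change -0.28). MT-TL1, a tRNA for leucine between MT-RNR2 and MT-ND1, was listed at 178.0 and 94.3 TPM, a log2 change of -0.91. All 3 tRNA genes of the rRNA region were thus lower, as they were with rescaled TPM. The other 2 were MT-TG for glycine (177.6 and 154.5 TPM, log2 change -0.20) and MT-TP, and both turned to higher with rescaled TPM.

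**Figure D3:**
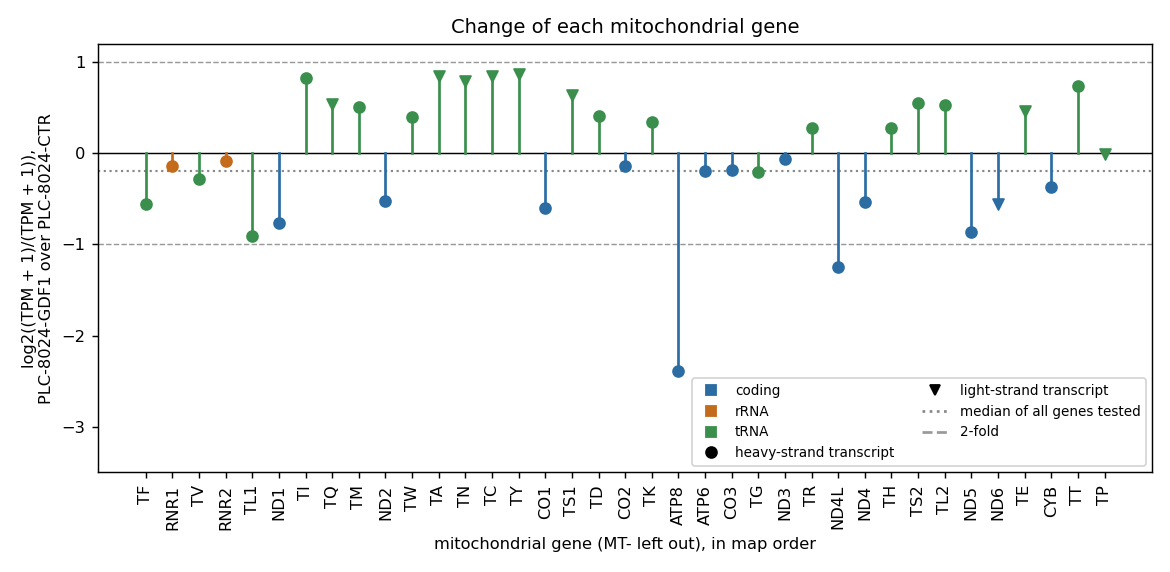
Log2((TPM + 1)/(TPM + 1)) with PLC-8024-GDF1 as numerator for each mitochondrial gene in map order, with triangles for genes of the light-strand transcript, dashed lines at 2-fold and a dotted line at the median of all genes tested (-0.20). As deposited, all coding and rRNA genes lie below 0 and 17 of 22 tRNA genes above it, where 63.4% of all genes tested were lower and 36.6% higher. Above the dotted line lie 3 coding genes and both rRNA genes, and MT-ATP6 (-0.20) lies on it. With rescaled TPM, 4 coding and both rRNA genes turn to higher.

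A list of 15 small structural nuclear RNAs that lack a poly(A) tail was set beside the tRNA genes, of which 17 were higher and 5 lower. Of the 15, 8 stayed under 5 TPM, 4 of them at the value that stands for 0 in both libraries. The other 7 were higher in PLC-8024-GDF1, against 36.6% of all genes tested, with a median log2 change of 0.57. Among these 7, RNU1-1 (4.91 and 8.55 TPM) reached 5 TPM only in PLC-8024-GDF1, so its direction was fixed by the filter. RN7SL1, the RNA of the signal recognition particle, was listed at 776 TPM in control cells and 1151 TPM in GDF1 cells (log2 change 0.57). RPPH1, the RNA of nuclear RNase P, was listed at 48.9 and 72.7 TPM (log2 change 0.56), and SNORD3A, a small nucleolar RNA that passed 2-fold, at 17.8 and 37.2 TPM (log2 change 1.02). Among nuclear genes, the 31 with a longest transcript of 100 bases or less had a median log2 change of -0.09, and the 78 of more than 100 and up to 300 bases had one of 0.32. The part of poly(A) selection and of gene length in the tRNA result was not tested.

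The 13 coding genes have 39.6% to 47.7% GC, and their median log2 change was -0.53. The 2354 nuclear protein-coding genes tested in that range had a median log2 change of -0.43, and only 20.9% of them were higher in PLC-8024-GDF1. All 8441 nuclear protein-coding genes had a median of -0.23, with 33.7% higher. The median was -0.56 for nuclear protein-coding genes of 35% to 40% GC, whereas the 22 tRNA genes, with a median GC content of 38.9%, had a median of 0.49. Among the coding genes themselves, MT-CO1 and MT-CO2 both have 46.2% GC and changed by -0.60 and -0.13. MT-ND3 with 40.2% GC changed by -0.06, and MT-ND1 with 47.7% GC by -0.76. The 142 nuclear protein-coding genes that reached 1000 TPM, a level like that of the mitochondrial coding genes, had a median of 0.14. The part of GC content in these results was not tested.

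Mitochondrial genes have near-identical copies in the nuclear genome, which can take up their reads. The files list 405 genes named as nuclear copies of mitochondrial coding genes or of MT-RNR2, and 8 of them reached 5 TPM. All 405 together were listed at 11011 TPM in control cells and 10981 TPM in GDF1 cells. On chromosome 1 of GRCh37, 7 copies follow each other from 564442 to 570302 in the same order as in the mitochondrial genome. These include MTND1P23, MTCO1P12 and MTATP6P1, which held 97.1% and 98.3% of the TPM of all copies.

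MTND1P23 (chr1:564442-564813) was listed at 6150 TPM in control cells and 7553 TPM in GDF1 cells (log2 change 0.30), opposite in direction to MT-ND1. It was listed above MT-ND1 itself in both libraries. Over 352 aligned bases it matched MT-ND1 at 349 (99.1%). A stretch of both is shown to make this likeness visible, with bases 709 to 798 of MT-ND1, bases 124 to 213 of MTND1P23 and the 2 differing bases in capitals.
MT-ND1: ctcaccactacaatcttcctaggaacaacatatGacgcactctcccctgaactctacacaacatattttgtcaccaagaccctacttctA
MTND1P23: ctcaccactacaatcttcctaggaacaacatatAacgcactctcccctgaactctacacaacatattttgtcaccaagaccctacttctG

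TPM is per length, and MTND1P23 (372 bases) is shorter than MT-ND1 (956 bases), so the copies were added weighted by their length. MT-ND1 then had a log2 change of -0.37, in place of -0.76, and of -0.13 when the TPM were added without weights. How reads were divided between the gene and its copy was not tested. MTATP6P1 was listed at 3044 and 1846 TPM (log2 change -0.72, 98.5% identity), and MT-ATP6 with its length-weighted copies had a log2 change of -0.34, in place of -0.20. MTCO1P12 was listed at 1501 and 1397 TPM (log2 change -0.10, 98.6% identity), and MT-CO1 with its length-weighted copies had a log2 change of -0.55. MTND2P28 was listed at 234 and 110 TPM (log2 change -1.08, 98.4% identity), and MT-ND2 with its length-weighted copies had a log2 change of -0.54. All 4 genes were lower in PLC-8024-GDF1 with the copies added either way. The fifth copy by level, MTCO3P12, was listed at only 21.5 and 20.8 TPM (log2 change -0.05, 98.2% identity). For the other coding genes and MT-RNR2, the copies held under 1% of the TPM of the gene. In MT-CO1, 27.9% of all 100-base windows also occurred unchanged in a copy, in MT-ND2 26.1%, in MT-ATP6 11.9% and in MT-ND1 11.0%. In MT-ATP8 and MT-ND4L no such window did, and the copies of these 2 genes were listed at under 1 TPM in all.

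**Figure D4:**
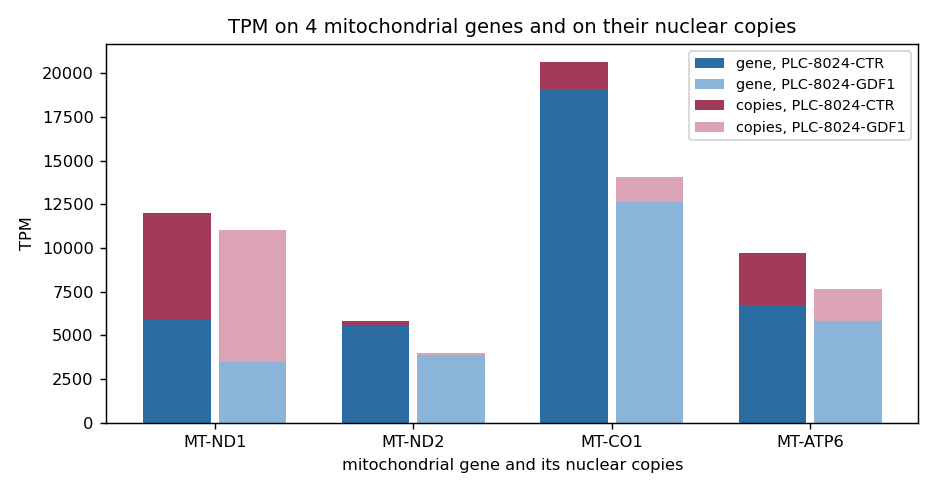
TPM of 4 mitochondrial genes (blue) with the summed TPM of their nuclear copies stacked on top (red), in PLC-8024-CTR (dark) and PLC-8024-GDF1 (light). The copies of MT-ND1 equalled 104.8% of its own TPM in PLC-8024-CTR and 217.9% in PLC-8024-GDF1, and each stack is lower in PLC-8024-GDF1; TPM is per length, so the stacks are not totals of reads.

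Of 74 nuclear subunits of complexes I, III, IV and V, all of which reached 5 TPM, 41 (55.4%, against 36.6% of all genes tested) were higher in PLC-8024-GDF1 and 33 lower. Their median log2 change was 0.03, against -0.53 for the 13 mitochondrial coding genes and -0.20 for all genes tested. Within complex I the median was 0.03 for the 37 nuclear subunits and -0.55 for the 7 mitochondrial ones. Within complex IV it was 0.03 for the 11 nuclear subunits, among which 8 were higher, and -0.19 for the 3 mitochondrial ones. Within complex V it was 0.17 for 17 nuclear subunits, and within complex III -0.23 for 9 nuclear subunits against -0.37 for MT-CYB. In total, 3 nuclear subunits (4.05%) passed 2-fold, all lower, against 10.8% of all genes that were lower past 2-fold. They were ATP5F1, a stalk subunit of ATP synthase (89.8 and 23.5 TPM, log2 change -1.89), ATP5A1, its catalytic-head alpha subunit (390.9 and 194.1 TPM, log2 change -1.01), and NDUFS1, the largest subunit of complex I (10.7 and 4.80 TPM, log2 change -1.01). NDUFS1 reached 5 TPM only in PLC-8024-CTR, so its direction was fixed by the filter.

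**Figure D5:**
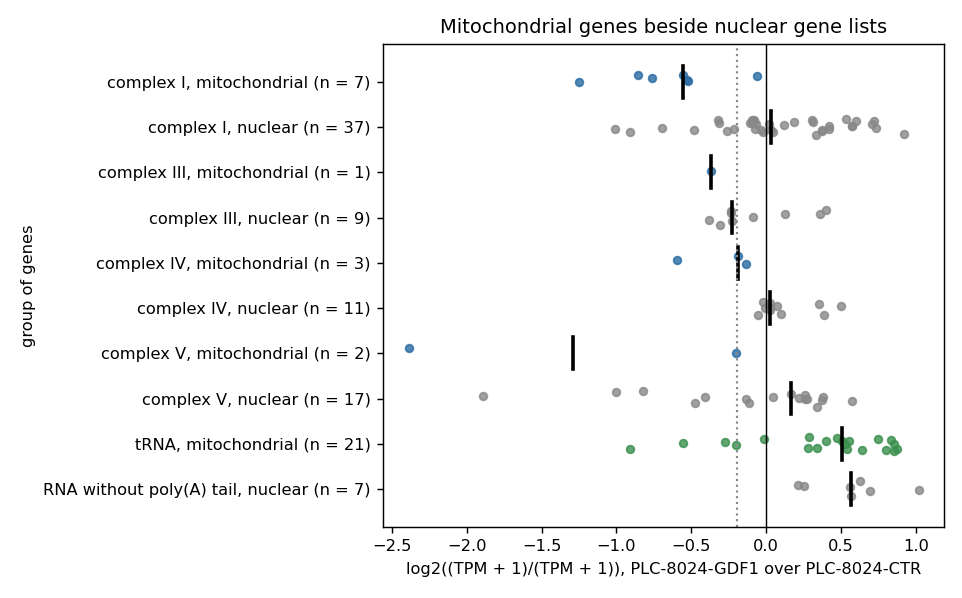
Log2((TPM + 1)/(TPM + 1)) with PLC-8024-GDF1 as numerator for mitochondrial coding genes (blue), mitochondrial tRNA genes (green) and nuclear lists (grey), 1 point per gene with at least 5 TPM in either library. Black bars mark medians and the dotted line the median of all genes tested; the tRNA genes (0.51) and the nuclear RNAs without a poly(A) tail (0.57) have similar medians.

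Of 45 nuclear genes that transcribe, maintain and process mitochondrial DNA and RNA, 34 reached 5 TPM. In PLC-8024-GDF1 14 (41.2%) were higher and 20 lower, a share near the 36.6% of all genes tested that were higher, with a median log2 change of -0.11. POLRMT, the mitochondrial RNA polymerase, was listed at 104.0 TPM in control cells and 113.7 TPM in GDF1 cells (log2 change 0.13). TFAM, which packages mitochondrial DNA and activates its promoters, was low in both libraries with 4.51 and 1.51 TPM (log2 change -1.14). LRPPRC, which stabilises the mitochondrial mRNAs, was listed at 32.7 and 24.0 TPM, a log2 change of -0.43. Of the 34, 2 (5.88%) passed 2-fold, against 15.7% of all genes tested. FASTK, of which one isoform is needed for MT-ND6 mRNA, was higher with 138.0 and 289.0 TPM (log2 change 1.06). PNPT1, a subunit of the mitochondrial RNA-degrading enzyme complex, was lower with 10.7 and 4.10 TPM (log2 change -1.20). It reached 5 TPM only in PLC-8024-CTR, so its direction was fixed by the filter. The same holds for MTERF2 (5.36 and 2.35 TPM), MGME1 (8.47 and 4.91 TPM) and KIAA0391 (7.83 and 4.51 TPM) among the 20 lower genes. ELAC2, which cuts the 3′ ends of the tRNAs from the precursor, was listed at 87.3 and 54.6 TPM (log2 change -0.67), and was named after its value was seen. Of 9 regulators of mitochondrial gene expression in the nucleus, 5 reached 5 TPM and all 5 were lower, against 63.4% of all genes tested. GABPB1, a subunit of the factor NRF2/GABP, passed 2-fold with 13.2 and 5.81 TPM (log2 change -1.06).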

How the data were processed

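RNA-seq was carried out on 1 PLC-8024-CTR and 1 PLC-8024-GDF1 library. According to the submitters' processing notes and the study's methods, the authors checked reads with FastQC 0.11.2, trimmed them with Trimmomatic 0.36, aligned them to hg19 with HISAT2 2.1.0 and deposited TPM values per gene from StringTie 1.3.3b. BEDTools 2.26.0 was used for coverage statistics. The column headers call the values means. A refGene annotation is named, whereas the gene identifiers are from Ensembl. The version of the mitochondrial sequence and the handling of strand are not given in the sources used here. Both tables were joined by gene identifier. Positions, lengths and sequences came from GENCODE v44 on GRCh37 (mitochondrial chromosome of 16569 bases), which held 55726 of 58174 identifiers.

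A pseudocount of 1 was used for single genes, with a minimum of 5 TPM in either library for counts, and 2-fold as the threshold. Named were all coding and rRNA genes, tRNA genes with at least 5 TPM, listed nuclear genes past 2-fold, TFAM, POLRMT and LRPPRC, and the 5 highest nuclear copies. Other nuclear genes named as examples were chosen after their values were seen. The members and lists were chosen with earlier results of these data known. TPM sums were 999990 and 999995, so depth is unknown. Python 3.11.15, numpy 2.4.6, pandas 2.3.3, Biopython 1.88 and matplotlib 3.10.9 were used, and the calculation of calls past 2-fold was tested on simulated data, which gives no error for the real libraries.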

Additional observations from a re-analysis of the deposited data

How the results depend on the processing

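No paired analysis was possible because there is only 1 library of control cells and 1 of GDF1 cells, and leaving out a replicate was not possible either. Values were judged by direction and by the side of 2-fold, counts by a factor of 1.5. With TPM rescaled to a median log2 ratio of 0, the summed mitochondrial genes (0.076), the rRNA sum (0.12), MT-RNR1 (0.073), MT-RNR2 (0.13), MT-CO2 (0.072), MT-CO3 (0.020), MT-ATP6 (0.0080), MT-ND3 (0.14), MT-TG (0.0060) and MT-TP (0.19) changed to higher in PLC-8024-GDF1. MT-TA (1.06), MT-TN (1.00), MT-TC (1.06), MT-TY (1.08) and MT-TI (1.03) then passed 2-fold, so that 7 mitochondrial genes did, 5 of them higher, and 723 of all genes were higher past 2-fold against 471. The share of higher genes among all past 2-fold moved from 31.2% to 50.5%. With CERS1 and GDF1 left out of the total, MT-TP changed to higher (0.0016). With overlapping pairs added up, weighted by length or not, 0 mitochondrial genes passed 2-fold and 0 were lower past it. With a minimum of 1 TPM or none, 720 genes were higher past 2-fold. The other 409 of 434 values kept direction and side, including those with other pseudocounts, mitochondrial genes left out of the total and nuclear copies added. Many of these 409 could not change. No copies of tRNA genes or of MT-RNR1 were counted, and adding up pairs left single genes outside the pairs untouched. With copies added, MT-ND1 moved from -0.76 to -0.37 (weighted by length) or -0.13 and MT-ATP6 from -0.20 to -0.34. Weighting by length was chosen after seeing the data, and 9 copies without a known length (0.945 and 0.424 TPM) were left out of it. Without depth or replicates, small changes cannot be told from noise.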
